A study of Homo sapiens with 6 samples.

Results

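The genes of the Wnt pathway described here are the secreted WNT ligands, their Frizzled (FZD) receptors and LRP5 and LRP6 coreceptors, the DKK and SFRP inhibitors, the Dishevelled (DVL) proteins, β-catenin (CTNNB1) with the APC, AXIN1, GSK3A and GSK3B proteins of its destruction complex, and the transcription factors LEF1, TCF7L1 and TCF7L2. The rule for choosing them used gene symbols alone, but it was set with earlier results of these data known. It took every array probe set whose single annotated symbol started with WNT, FZD, DVL, DKK, SFRP, TCF7 or AXIN or was one of the other names above. This gave 73 probe sets of 43 genes, out of 22215 probe sets tested and 11963 genes with a probe set of a single symbol. AXIN2, TCF7 and a further 2 probe sets, of FZD8 and of WNT3, which are annotated to several genes, are not analysed here. RNA came from SH-SY5Y cells, a line derived from a human neuroblastoma and used as a stand-in for neurons, in 3 flasks exposed for 4 h to free unconjugated bilirubin (UCB) at 140 nM (Bf 140 nM) and in 3 flasks exposed for 4 h to the solvent alone (DMSO 0.6%). The solvent of UCB was DMSO, the flasks were separate for each treatment, and the study describes its replicates as biological ones. A single tumour line without other brain cells limits what the model can show. One Affymetrix GeneChip oligonucleotide array was hybridized per flask.

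WNT proteins are secreted, lipid-modified ligands that bind an FZD receptor together with LRP5 or LRP6. In cells without this signal, the destruction complex of AXIN, APC and the kinases GSK3A, GSK3B and casein kinase 1 marks β-catenin for degradation. With the signal, DVL proteins help to inactivate the complex, and β-catenin accumulates and enters the nucleus, where it acts with TCF and LEF factors. SFRP proteins bind WNT ligands outside the cell, and DKK proteins such as DKK1 block LRP5 and LRP6. The pathway patterns the neural crest, from which the sympathetic lineage and neuroblastoma arise. Array values measure transcripts, and most of the regulation of β-catenin acts on the protein.

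No Wnt pathway probe set passed the test between Bf 140 nM and DMSO 0.6%. The members above background on every array were inhibitors, receptors and intracellular genes, but none of the 13 WNT genes among the members. Of the 73 probe sets, 30, standing for 20 genes, were above background on all 6 arrays. These 20 genes were DKK1, DKK2, DKK3 and SFRP1 among the inhibitors, FZD1, FZD2, FZD3, FZD4, FZD6 and FZD7 among the receptors, DVL1, DVL2 and DVL3, then APC, AXIN1, CTNNB1, GSK3A and GSK3B, and finally LEF1 and TCF7L2. None of the 18 probe sets of the 13 WNT genes was, and other WNT genes were not assessed. The differences of the 73 probe sets between Bf 140 nM and DMSO 0.6% lay between -0.27 (DKK2) and 0.20 (FZD3) on the log2 scale.

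Values are normalised levels on a generalised log2 scale, which is close to log2 for bright probe sets and compressed for dim ones. Since probe sets differ in affinity, a level gives no order of abundance between genes. A level was called above background where it lay above the 95th percentile of 59 probe sets for 42 genes of other adult tissues on the same array, such as ALB of the liver and INS of the pancreas, and this limit was between 7.72 and 7.96 on the 6 arrays. By the same rule 45.8% of all probe sets were above background on all 6 arrays, against 41.1% of the Wnt pathway probe sets. A further 8 were above it on some arrays and 35 on none. In SH-SY5Y cells, 10 of 12 measured genes of the noradrenergic neuroblastoma lineage were above background on every array, GATA3, DBH and PHOX2A among them, and HAND2 and TH were not. Of 12 measured mesenchymal or Schwann cell genes, 5 were (COL1A1, COL3A1, FN1, LUM and DCN). The mean level of that mesenchymal list was 7.90 to 8.10 in Bf 140 nM arrays and 7.96 to 8.12 in DMSO 0.6% arrays, so the ranges overlapped. The array labelled DMSO 0.6% replicate 3 stood apart in its control probe sets: the 3' minus 5' difference of beta-actin, which grows as labelled transcripts get shorter at their 5' end, was 2.21 there and 0.10 to 0.89 on the other 5 arrays.

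DKK1, the secreted inhibitor that blocks LRP5 and LRP6, was the member that lay farthest above the background limit. Its probe set, 204602_at, read 13.30, 13.16 and 13.31 in Bf 140 nM replicates 1, 2 and 3, against 13.27, 13.16 and 13.48 in DMSO 0.6%. The groups overlapped fully, and the difference was -0.05 (SE 0.12), with an interval from 0.80-fold to 1.17-fold. DKK1 is itself known as a target of β-catenin and TCF factors. Its promoter is shown because it was the only one among the members to hold more than 1 of the 4 TCF-type words searched for, namely CTTTGAA, here the first word, and a variant with another ending, CTTTGTT, the second. The window runs from 250 bases before to 50 bases after the annotated start (RefSeq, GRCh38.p14, plus strand, chr10:52314031-52314330). The capitals mark, from the 5' end, the first word, the second word and a TATA box motif (TATAAA).

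DKK1 promoter: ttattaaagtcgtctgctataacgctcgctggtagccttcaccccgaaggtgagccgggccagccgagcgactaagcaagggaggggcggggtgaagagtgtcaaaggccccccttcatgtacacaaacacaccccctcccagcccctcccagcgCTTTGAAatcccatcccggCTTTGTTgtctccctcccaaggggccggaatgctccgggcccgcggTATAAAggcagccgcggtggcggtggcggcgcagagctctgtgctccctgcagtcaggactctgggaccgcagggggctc

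The first word, the second word and the TATA box motif begin 95, 76 and 30 bases before the start, on the strand shown, and do not overlap. On either strand, the first word was present in 4.43% of the 35116 RefSeq promoter windows of this length, the second in 5.20% and both together in 0.404%. That last share is for the pair of words that DKK1 holds. The share of windows with any pair of the 4 words was not counted and cannot be lower. The TATA box motif was present in 11.5%, and in 1 further member gene, WNT5B. The third word searched for, CTTTGAT, was present in 2.62% of the windows. The fourth, with the sequence CTTTGTA, was present in 2.77%. Windows were matched for 30 of the 43 member genes, 36 windows in all, and apart from DKK1 only 1 window of TCF7L2 held any of the 4 words, the second. A match describes the letters and is not a binding site, and no binding was measured.

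**Figure D1:**
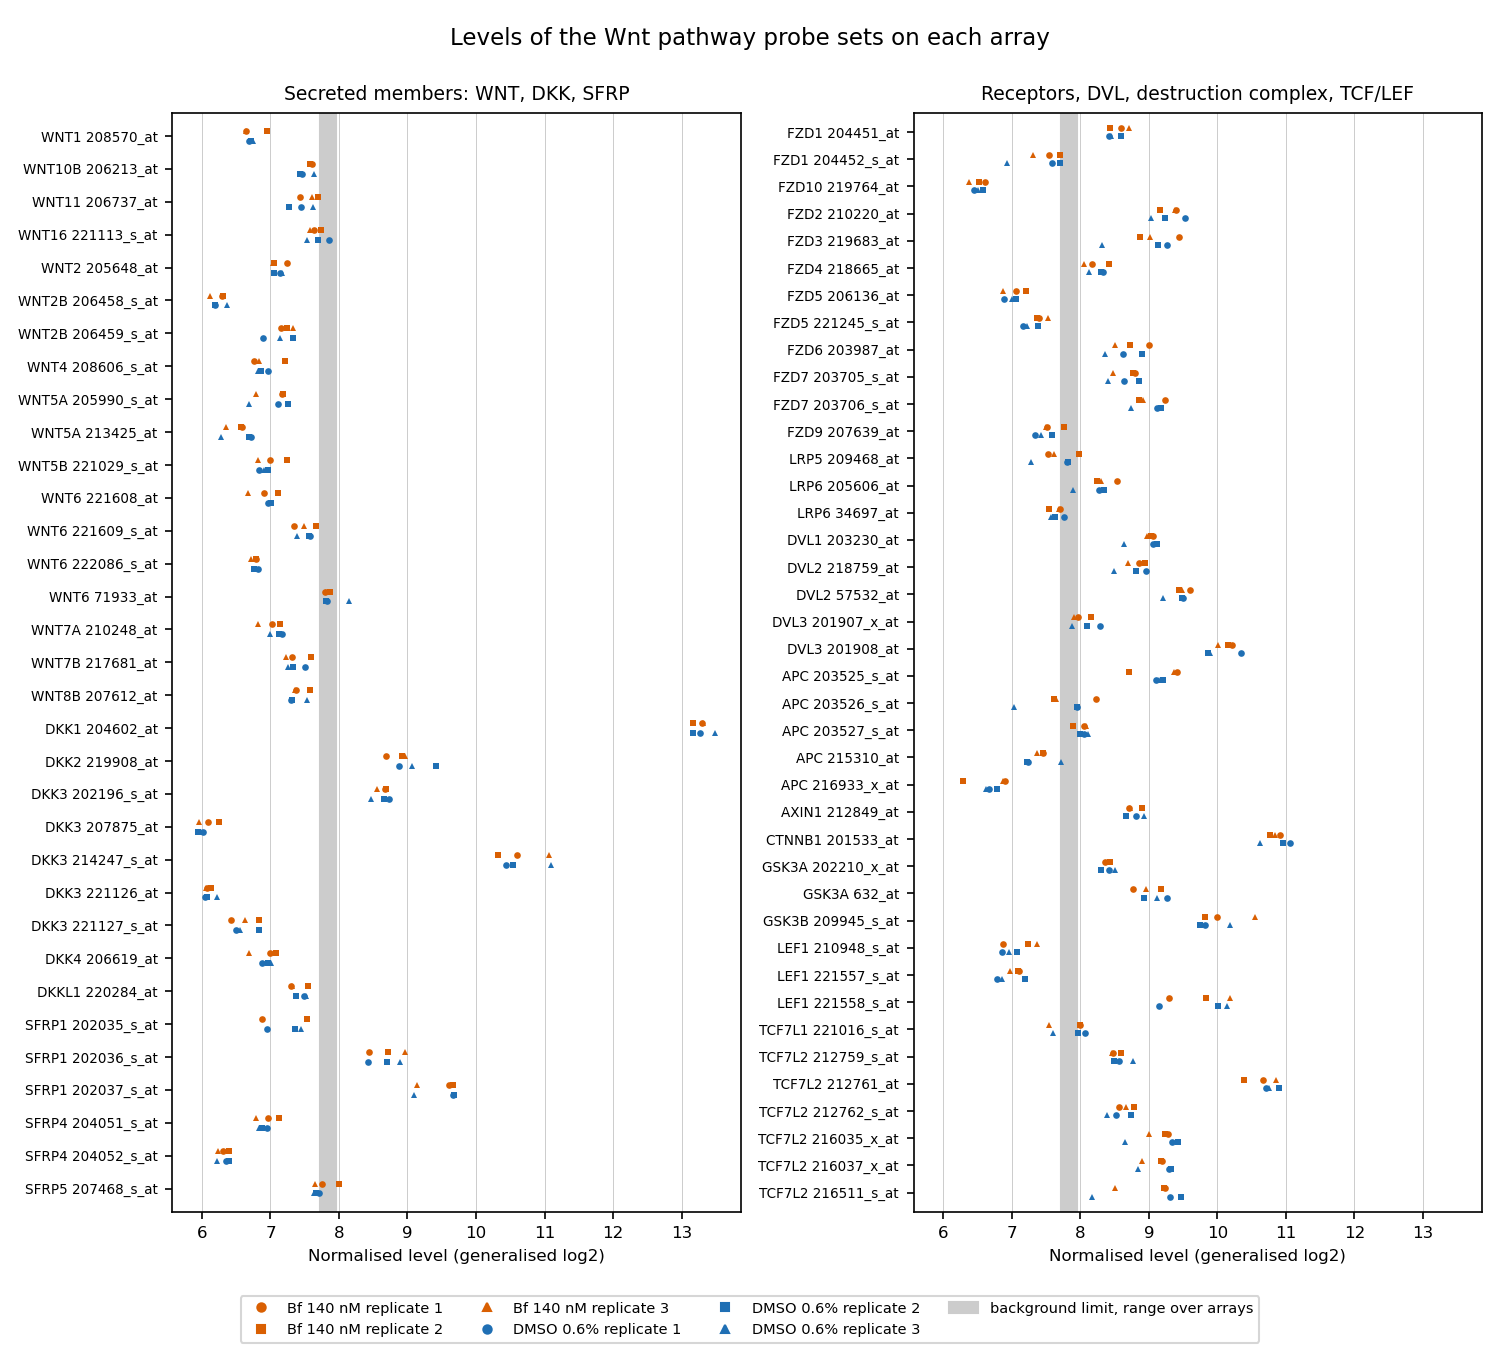
Normalised level (generalised log2) of each of the 73 Wnt pathway probe sets on the 6 arrays, with Bf 140 nM above DMSO 0.6% in each row, symbols for the replicate numbers and a grey band for the background limit over the arrays (7.72 to 7.96). The 18 WNT probe sets lie below or at the band except for 1 WNT6 value of 8.14 in DMSO 0.6% replicate 3, whereas DKK1 lies near 13.28, far above it.

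The WNT ligands had mean levels between 6.25 (WNT2B) and 7.88 (WNT6). Of their 18 probe sets 17 were above background on no array, and 1 of the 4 probe sets of WNT6 (71933_at) was on 4 arrays. WNT5A and WNT11, ligands known from the polarity and calcium branch, were above it on no array. WNT11 had the lowest unadjusted p of the ligands: 206737_at read 7.44, 7.70 and 7.61 in Bf 140 nM and 7.45, 7.26 and 7.62 in DMSO 0.6%. The difference of 0.14 came from the arrays numbered 2 alone, since it was -0.01, 0.44 and -0.02 by replicate number. At levels like these, a transcript that is present at a low level cannot be told apart from an absent one.

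The other inhibitors fell into members well above background and members at it. DKK2, a DKK family member that can inhibit or activate signalling depending on its partners, had the largest difference of all the members: 219908_at read 8.69, 8.91 and 8.96 in Bf 140 nM and 8.87, 9.42 and 9.07 in DMSO 0.6%. Bf 140 nM was the lower in each of the 3 pairs of arrays with the same replicate number, by -0.18, -0.51 and -0.11, yet the highest Bf 140 nM arrays exceeded the lowest DMSO 0.6% array. The mean difference was -0.27 (SE 0.16), 0.83-fold with an interval from 0.64-fold to 1.08-fold (limma, unadjusted p = 0.134, adjusted p = 1.00). With the replicate number as a block, the unadjusted p was 0.052 and the adjusted p remained at 1.00 (limma).

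DKK3, a divergent family member, had 5 probe sets whose mean levels spanned 6.04 to 10.67, so a single gene covered the range from background to far above it. The brightest of them, 214247_s_at, read 10.59, 10.32 and 11.06 in Bf 140 nM and 10.44, 10.53 and 11.10 in DMSO 0.6%. In both groups the array numbered 3 was the highest, and the groups differed by -0.03. The dim probe set 207875_at, at 6.10 in Bf 140 nM and 5.99 in DMSO 0.6%, had the highest difference of the 5, 0.11. DKK4 and DKKL1 were above background on no array.

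SFRP1, a secreted antagonist that binds WNT ligands, had 3 probe sets, of which 2 ranked the arrays alike and 1 did not. Probe set 202036_s_at read 8.44, 8.71 and 8.96 in Bf 140 nM and 8.43, 8.71 and 8.90 in DMSO 0.6%, so that the number 3 arrays were the highest. Probe set 202035_s_at, above background on no array, had the same order in both groups, at 6.88, 7.53 and 7.54 in Bf 140 nM and 6.96, 7.35 and 7.45 in DMSO 0.6%. Probe set 202037_s_at read 9.61, 9.66 and 9.13 in Bf 140 nM and 9.67, 9.69 and 9.10 in DMSO 0.6%, and there the number 3 arrays were the lowest. The treatment differences of 202036_s_at and 202037_s_at were 0.03 and -0.02, and that of 202035_s_at was 0.06. SFRP5 averaged 7.80 ± 0.18 in Bf 140 nM and 7.67 ± 0.04 in DMSO 0.6% (SD, n = 3 each) and was above background on 2 arrays, whereas SFRP4 was so on none.

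Among the Frizzled receptors, which are the seven-pass membrane proteins that bind WNT ligands, 7 of 12 probe sets were above background on all 6 arrays and 5 on none. FZD2 averaged 9.32 ± 0.13 in Bf 140 nM and 9.27 ± 0.25 in DMSO 0.6%, and FZD7 203705_s_at 8.68 ± 0.18 and 8.63 ± 0.22 in the same order (SD, n = 3 each). FZD6, which is known to restrain the β-catenin branch, averaged 8.75 ± 0.25 in Bf 140 nM and 8.62 ± 0.27 in DMSO 0.6%, and FZD1 204451_at 8.58 ± 0.14 and 8.49 ± 0.09 in the same order. FZD4, at 8.22 ± 0.19 in Bf 140 nM and 8.25 ± 0.11 in DMSO 0.6%, was the receptor nearest to the limit among those above it. In all of these the difference was within the spread of the arrays. FZD5, FZD9 and FZD10 were not above it. FZD3, a receptor known for its part in axon guidance, had the highest difference of the members, 0.20 (SE 0.27). It read 9.44, 8.87 and 9.01 in Bf 140 nM and 9.26, 9.14 and 8.31 in DMSO 0.6%, so the difference by replicate number was 0.17, -0.26 and 0.70. The groups overlapped, and without DMSO 0.6% replicate 3, the array with the high beta-actin value, the difference turned to -0.09.

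The lowest unadjusted p of the 73 member probe sets belonged to a receptor probe set at background. FZD5 221245_s_at read 7.40, 7.36 and 7.53 in Bf 140 nM and 7.16, 7.38 and 7.22 in DMSO 0.6%, a difference of 0.18 (limma, unadjusted p = 0.132, adjusted p = 1.00). A second FZD5 probe set differed by 0.07. FZD9 read 7.52, 7.76 and 7.50 in Bf 140 nM and 7.34, 7.59 and 7.43 in DMSO 0.6%, higher in Bf 140 nM in each of the 3 pairs but by 0.14 in the mean and on no array above background.

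The coreceptors lay near the limit. LRP6 205606_at was above background on 5 arrays, at 8.54, 8.25 and 8.30 in Bf 140 nM and 8.27, 8.34 and 7.90 in DMSO 0.6%. Its difference was 0.19 (SE 0.15), and it was 0.06 without DMSO 0.6% replicate 3. The second LRP6 probe set, 34697_at, differed by -0.01 and was above background on no array. LRP5 averaged 7.71 ± 0.24 in Bf 140 nM and 7.63 ± 0.31 in DMSO 0.6% (SD, n = 3 each) and was above background on 2 arrays.

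The 3 DVL genes, whose products relay the signal from FZD receptors to the destruction complex, were all above background. DVL1 averaged 9.02 ± 0.04 in Bf 140 nM and 8.94 ± 0.26 in DMSO 0.6%, DVL2 57532_at 9.51 ± 0.08 and 9.40 ± 0.16, and DVL3 201908_at 10.12 ± 0.10 and 10.04 ± 0.27 in the same order (SD, n = 3 each). The wider spread in DMSO 0.6% for DVL1 came from replicate 3, at 8.64 against 9.06 and 9.12 in replicates 1 and 2. All 5 DVL probe sets were higher in Bf 140 nM in the arrays numbered 3, but only 1 of 5 was in those numbered 1. In the arrays numbered 3 the same held for 57.5% of all probe sets and for 79.1% of those above background on all 6 arrays.

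CTNNB1, which encodes β-catenin, read 10.91, 10.76 and 10.85 in Bf 140 nM and 11.05, 10.95 and 10.62 in DMSO 0.6%. The difference was -0.03 (SE 0.13), with an interval from 0.79-fold to 1.22-fold. By replicate number it was -0.14, -0.19 and 0.23, and without DMSO 0.6% replicate 3 it was -0.16.

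GSK3B, the kinase that phosphorylates β-catenin for degradation, was higher in Bf 140 nM in each of the 3 pairs. It read 9.99, 9.81 and 10.55 in Bf 140 nM and 9.82, 9.74 and 10.18 in DMSO 0.6%. The array numbered 3 was the highest in both groups, and the spread between numbers exceeded the difference of 0.20 (SE 0.21, 1.15-fold with an interval from 0.82-fold to 1.62-fold). The unadjusted p was 0.361, or 0.110 with the replicate number as a block, and the adjusted p was 1.00 in both fits (limma). Without Bf 140 nM replicate 3 the difference was -0.01. The related kinase GSK3A had 2 probe sets, 632_at with 8.97 ± 0.20 in Bf 140 nM and 9.10 ± 0.17 in DMSO 0.6%, and 202210_x_at with 8.40 ± 0.04 and 8.40 ± 0.10 in the same order (SD, n = 3 each).

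The scaffold genes of the complex did not separate the groups either. AXIN1 averaged 8.78 ± 0.10 in Bf 140 nM and 8.81 ± 0.13 in DMSO 0.6% (SD, n = 3 each). APC, the tumour suppressor that holds β-catenin in the complex, had 5 probe sets with mean levels of 6.69 to 9.16, of which 203525_s_at alone was above background on all 6 arrays. That probe set read 9.41, 8.70 and 9.37 in Bf 140 nM and 9.11, 9.21 and 9.15 in DMSO 0.6%, so Bf 140 nM held both the highest array and the lowest. The mean difference was 0.00, and by replicate number 0.30, -0.51 and 0.22.

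Among the transcription factors, TCF7L2 and LEF1 were above background on all 6 arrays and TCF7L1, a factor that mostly represses, was on 4. LEF1 221558_s_at varied more by replicate number than by treatment: it read 9.30, 9.84 and 10.18 in Bf 140 nM and 9.15, 10.00 and 10.14 in DMSO 0.6%. The number 1 arrays were the lowest in both groups and the difference was 0.01 (SE 0.31). The 2 other LEF1 probe sets were above background on no array. One of them, 210948_s_at, was among the 10 lowest p of the members, with 6.87, 7.23 and 7.37 in Bf 140 nM and 6.86, 7.07 and 6.96 in DMSO 0.6% (difference 0.19).

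TCF7L2 had 6 probe sets, all above background on all 6 arrays, of which 3 were higher and 3 lower in Bf 140 nM. The brightest, 212761_at, read 10.66, 10.39 and 10.85 in Bf 140 nM and 10.71, 10.89 and 10.76 in DMSO 0.6%. Bf 140 nM replicate 2 was the lowest of the 6 arrays, and the difference of -0.15 was -0.05, -0.50 and 0.10 by replicate number. Probe set 216511_s_at read 9.23, 9.22 and 8.50 in Bf 140 nM and 9.31, 9.47 and 8.17 in DMSO 0.6%. The number 3 arrays were low in both groups, the SD of 0.71 in DMSO 0.6% was the highest of any member, and the difference was 0.00, or -0.40 without DMSO 0.6% replicate 3.

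**Figure D2:**
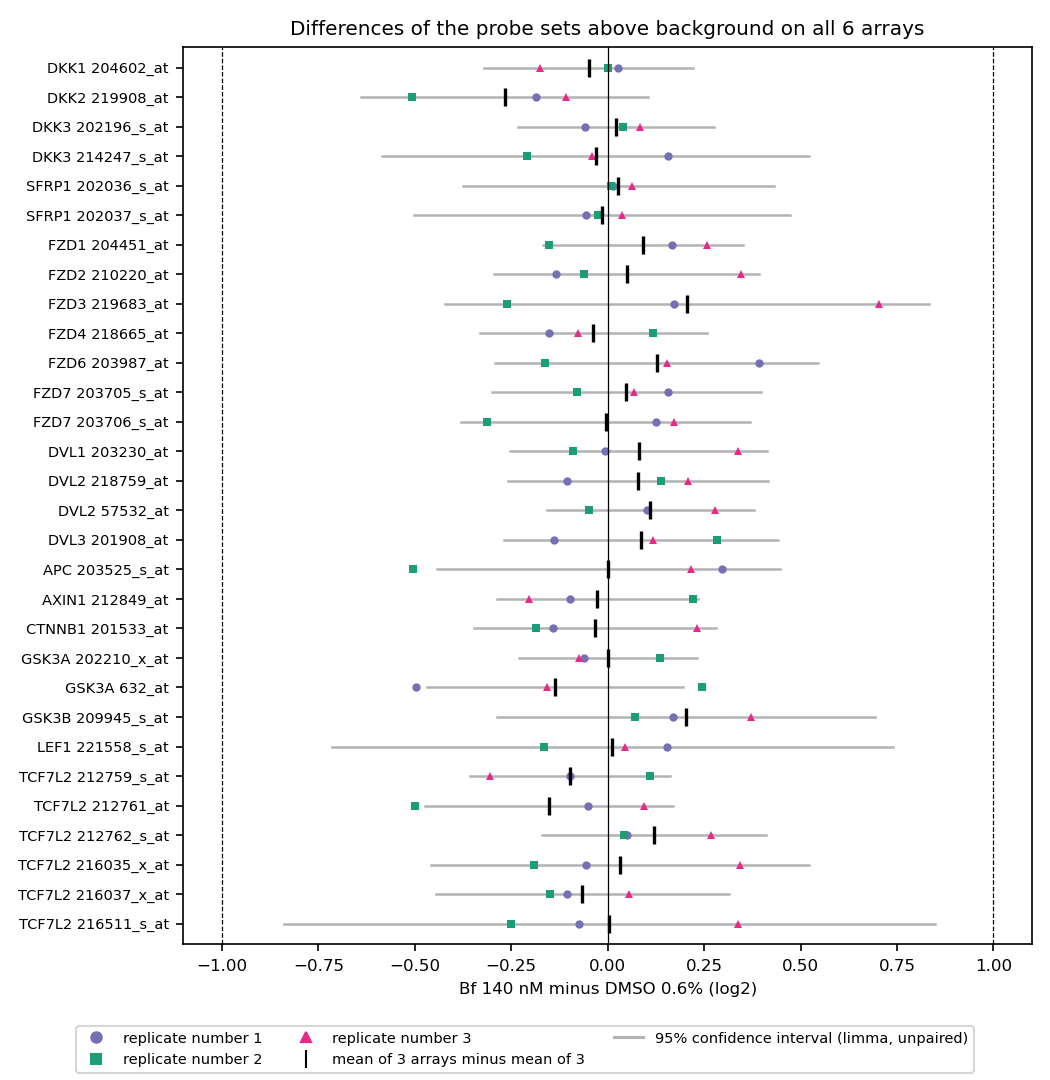
Bf 140 nM minus DMSO 0.6% on the log2 scale for the 30 probe sets above background on all 6 arrays, with the mean difference (black bar), its 95% confidence interval from limma (grey) and the difference within each replicate number (symbols). Every interval includes 0 and stays within the dashed lines of a 2-fold change, and DKK2 lies farthest to the left.

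Across the pathway, 0 of 73 probe sets were called at an adjusted p under 0.10 (limma, Benjamini-Hochberg adjustment over all 22215 probe sets), where the array-wide share was 0%. The lowest unadjusted p of a member was 0.132 (limma, adjusted p = 1.00). At an unadjusted p under 0.05 there were 0 members, against 17 probe sets or 0.0765% of the array, and with the replicate block 0 members, against 92 probe sets or 0.414% (limma). Uniform p-values would put a share of 0.05 of the probe sets there, so both fits gave far fewer low p than that. The lowest unadjusted p of the whole array was 0.021 (limma, unpaired). The absence of calls therefore does not show that no transcript changed. In 0 members were all Bf 140 nM arrays above all DMSO 0.6% arrays, where the array-wide share was 1.68%, and in 0 members were they all below, where it was 0.981%. In 72 of 73 members, the difference was smaller than the higher of the SDs of the 2 groups. The precision of 3 arrays against 3 differed between members: on this compressed scale the widest 95% interval, that of TCF7L2 216511_s_at, ran from 0.56-fold to 1.80-fold, and that of WNT6 222086_s_at from 0.85-fold to 1.13-fold. All 73 intervals included a ratio of 1. Such an interval gives the precision of a single member and is not the smallest difference that the test would have called. Differences over all 22215 probe sets ran from -0.57 to 0.70 on the log2 scale, and none was called (limma, adjusted p under 0.10). In a whole culture, fewer cells of a kind and less RNA per cell cannot be told apart.

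The median difference of the members was 0.02, beside 0.03 for all probe sets. Of the 73, 41 were higher and 32 lower in Bf 140 nM, which is 56.2% higher, beside 63.2% of all probe sets. This split depended on the scaling: with each array centred on its median, or with quantile normalization, 31 of the 73 were higher. By replicate number the member medians were -0.01, 0.03 and 0.05, beside 0.03, -0.004 and 0.04 for all probe sets. In the same order 35, 40 and 43 of the 73 members were higher in Bf 140 nM, beside 12735, 10918 and 12776 of all 22215 probe sets. For the 30 members above background on all 6 arrays the medians were -0.05, -0.07 and 0.11, with 13, 12 and 22 higher. All 10185 probe sets above background on all 6 arrays had medians of 0.06, -0.13 and 0.20, with 6585, 2442 and 8059 higher. Differences within numbers 2 and 3 thus include shifts shared by bright probe sets across the array. DKK2, FZD9 and GSK3B were not the only members with the same direction in all 3 pairs. SFRP1 202036_s_at, SFRP5, LEF1 210948_s_at and TCF7L2 212762_s_at were also higher in Bf 140 nM in each, and APC 203527_s_at lower. The share of all probe sets with such agreement was not counted.

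**Figure D3:**
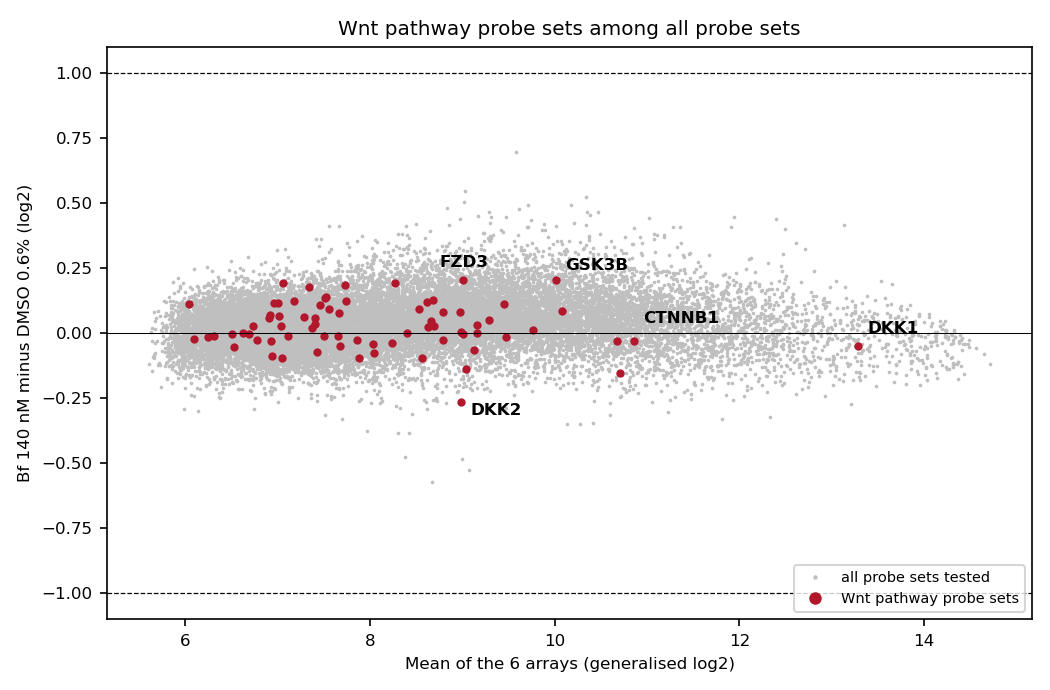
Difference on the log2 scale between Bf 140 nM and DMSO 0.6% (vertical) plotted over the mean level on the generalised log2 scale (horizontal) for all 22215 probe sets (grey) and the 73 Wnt pathway probe sets (red). Differences are Bf 140 nM minus DMSO 0.6%, and the members lie between -0.27 and 0.20, inside the cloud of all probe sets, and DKK1 is at the bright end.

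The replicate number is shared by 1 array of each group. The 3 numbers had the same order in both groups in 13 of 73 members (17.8%), beside 24.8% of all probe sets. The range of the 3 number means was larger than the treatment difference in 67 of 73 members (91.8%), as it was in 89.6% of all probe sets, with a median range of 0.23 and a median absolute treatment difference of 0.06 over the members. A range over 3 means is wider by construction than a difference of 2. The widest ranges were those of TCF7L2 216511_s_at (1.01), LEF1 221558_s_at (0.94), APC 203526_s_at (0.75), FZD3 (0.69), DKK3 214247_s_at (0.65) and GSK3B (0.59). The deviations of same-numbered arrays from their group means correlated over the members at 0.61, 0.06 and 0.62 for numbers 1, 2 and 3, so the arrays numbered 2 hardly moved together. The beta-actin 3' minus 5' difference was highest in the number 3 arrays of both groups (0.89 in Bf 140 nM and 2.21 in DMSO 0.6%). Its part in the levels was not tested.

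**Figure D4:**
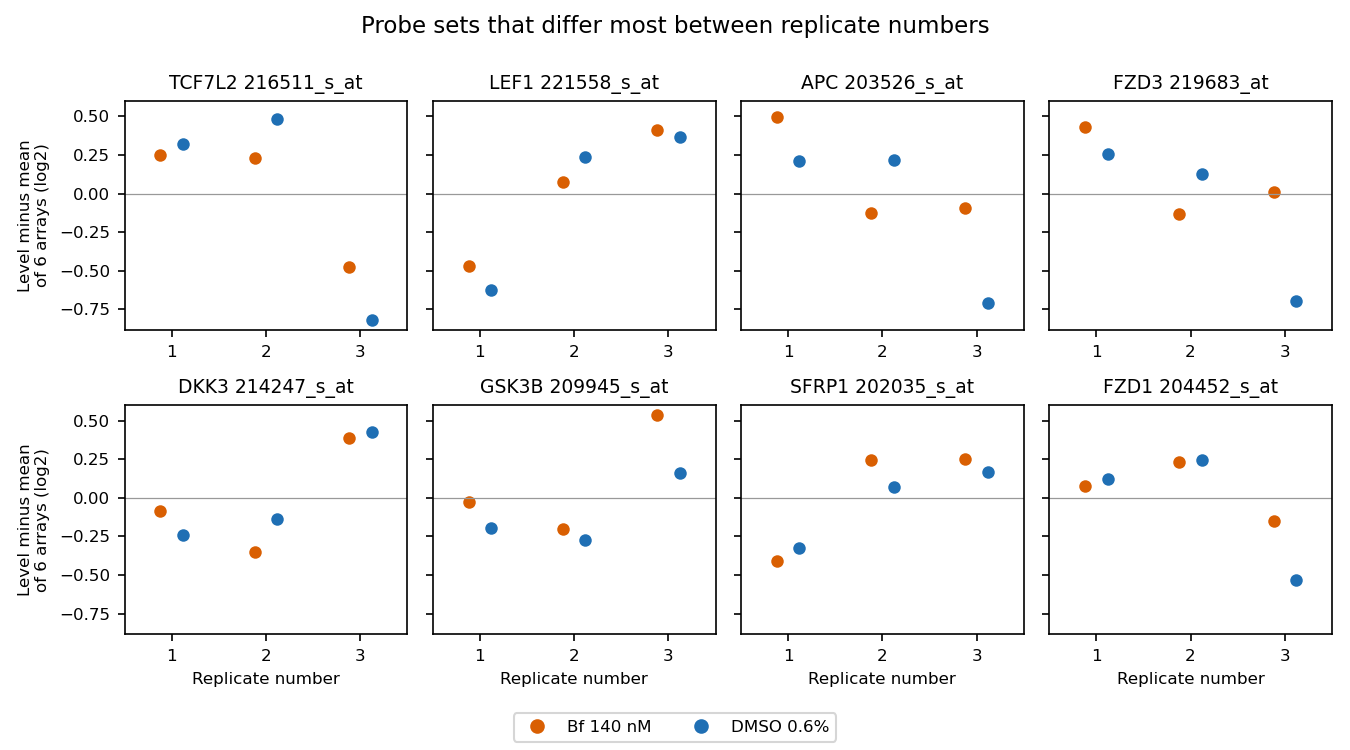
Level on each array, as a log2 distance from the average of all 6, shown for 8 probe sets with the widest range between replicate numbers, by replicate number, with Bf 140 nM left of DMSO 0.6%. LEF1 was lowest on both number 1 arrays and TCF7L2 216511_s_at lowest on both number 3 arrays, whereas FZD3 and APC were lowest on number 2 in Bf 140 nM and on number 3 in DMSO 0.6%, and 4 of the 8 had the same order of numbers in both groups.

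The other genes of the pathway were taken from lists with 1 probe set per gene, and in each list 0 genes were called (limma, adjusted p under 0.10). Beside the directions below, 63.2% of all probe sets were higher in Bf 140 nM, with a median of 0.03. Of those above background on all 6 arrays, 69.1% were, with a median of 0.05. The brightest probe set stood for each gene, so counts above background cannot be set beside the 45.8% of all probe sets. In the list of Wnt secretion and extracellular genes, 17 of 27 were measured and 5 were above background, with 13 differences positive and 4 negative and a median of 0.02. FRZB, a secreted antagonist related to the SFRP proteins, averaged 7.96 ± 0.02 in Bf 140 nM and 7.87 ± 0.02 in DMSO 0.6% (SD, n = 3 each). KREMEN2, a DKK receptor, averaged 7.88 ± 0.04 and 7.81 ± 0.07 in the same order. In both, the groups did not overlap, as in 1.68% of all probe sets in this direction, but the levels lay at the background limit (limma, unadjusted p = 0.300 for FRZB and 0.432 for KREMEN2, adjusted p = 1.00 for both). PTK7, a receptor-like protein of the polarity branch, differed by 0.13 and overlapped.

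In the list of β-catenin destruction and nuclear genes, 43 of 49 were measured and 35 were above background, with 31 differences positive and 12 negative and a median of 0.04. CTBP1, a corepressor that works with TCF factors, averaged 11.04 ± 0.13 in Bf 140 nM and 11.26 ± 0.14 in DMSO 0.6% without overlap (difference -0.22), as in 0.981% of all probe sets in this direction (limma, unadjusted p = 0.10, adjusted p = 1.00). Of its other probe sets, 213980_s_at differed by -0.16 and 203392_s_at by 0.15. TLE1, a Groucho-type corepressor of TCF factors, differed by 0.20, of which 0.60 was in the number 3 arrays and 0.03 and -0.02 in those numbered 1 and 2. TLE2 (0.11, chosen after its values were seen) was higher in Bf 140 nM without overlap, where the array-wide share was 1.68% (limma, unadjusted p = 0.307, adjusted p = 1.00). CSNK1E, a casein kinase 1 gene, differed by -0.18.

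In the list of the polarity and calcium branch, 21 of 26 were measured and 15 were above background, with 14 positive and 7 negative differences and a median of 0.04. NFATC3, a calcium-regulated transcription factor, differed by 0.26, with 0.12, -0.10 and 0.77 by replicate number, VANGL1, a membrane protein of planar polarity, by 0.18 and MAPK8, the stress kinase JNK1, which was above background on 1 array, by 0.15. All overlapped. In the list of known β-catenin target genes, 20 of 23 were measured and 12 were above background, with 9 positive and 11 negative differences and a median of -0.01. JUN differed by 0.16 in its brightest probe set (limma, unadjusted p = 0.219) and by 0.22, 0.17 and 0.14 in its others. MITF, a melanocyte factor, differed by 0.16. TCF4, an E-box binding factor whose symbol is often confused with an old name of TCF7L2, differed by -0.27 in its brightest probe set, lower in Bf 140 nM in each of the 3 pairs (limma, unadjusted p = 0.316, or 0.036 with the block, and adjusted p = 1.00 in both). Of its 7 probe sets, 5 were lower and 2 higher in Bf 140 nM, with differences up to 0.11.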

How the data were processed

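SH-SY5Y flasks were profiled on 6 Affymetrix GeneChip oligonucleotide arrays, 3 for Bf 140 nM and 3 for DMSO 0.6%, at 4 h; the 1-h and 24-h arrays were not used here. The deposited log2 values were made by the authors with GCOS and variance-stabilizing normalization (justvsn, R version 2.5.0). The sources used here do not state the summary from probes to probe sets, and the files name no genome build. The table had 22277 probe sets, of which 62 were controls that served to judge array quality and were not tested. Symbols came from the platform annotation, updated through RefSeq.

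Bf 140 nM minus DMSO 0.6% was tested with limma 3.58.1 (R 4.3.3) across all 22215 probe sets, two-sided and unpaired, at an adjusted p under 0.10, the FDR level of the study. The study's SAM test and detection calls were not run here. The limma step was tested on simulated data with independent noise on each array. That simulation held no shifts shared between arrays, so it does not show how the test behaves with such shifts. The labels' replicate numbers are shared by both groups, and same-numbered arrays' deviations correlated at 0.60, 0.23 and 0.57 over all probe sets, each above the minimum of 0.1, with 5 of 6 arrays closest to their own number. Over the members alone the correlations were 0.61, 0.06 and 0.62, so number 2 lay below that minimum. On the basis of all probe sets, differences within same-numbered pairs were described, and a fit with the number as a block was the alternative. The main fit stayed unpaired, so every SE, interval and p given without mention of the block does not use the pairing. The number of arrays limits the precision.

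Named were members above background on all arrays, the 10 with the lowest p, the central pathway genes, and 3 genes of lowest p per list. Members and lists were chosen with earlier results of these data known. Genes in lists were represented by their brightest probe set. Alternatives were the scaling, the background rule, probe set filters, the block and leaving out arrays.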

Additional observations from a re-analysis of the deposited data

How the results depend on the processing

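No array-wide call and no call among the Wnt pathway probe sets arose under any alternative run (limma, adjusted p under 0.10). With the replicate number as a block to use the pairing, the count was also 0. The median difference of the members, 0.02, was -0.013 with each array centred on its median and -0.015 with quantile normalization (all probe sets -0.0018 and -0.0016), and -0.0063 to 0.057 when 1 array was left out. Members whose groups did not overlap numbered 0. Under quantile normalization there was 1, TCF7L2 212761_at (10.61 in Bf 140 nM and 10.81 in DMSO 0.6%), beside 3.58% of all probe sets. When 1 array was left out there were 2 to 10, beside 5.76% to 17.6% of all probe sets, but the ends of these ranges come from different runs. The 10 of 73 arose without DMSO 0.6% replicate 3, the array with the high beta-actin value. That was a higher share than the 8.74% of all probe sets in that run. The 17.6% arose without Bf 140 nM replicate 2, where there were 9 of 73 members, a lower share. In the remaining runs with 1 array left out the member share was also the lower. Without both arrays numbered 3, an alternative chosen after seeing the data, there were 19 of 73. That was a higher share than the 19.7% of all probe sets. Counts rise in such runs since fewer arrays overlap less often. The sign of 10 of the 73 differences changed under either scaling, and that of 11 to 22 when 1 array was left out. GSK3B was the only one of the 10 members with the lowest p to reverse, with differences of -0.011 to 0.36 when 1 array was left out (-0.011 without Bf 140 nM replicate 3). Members above background numbered 30, and 26 to 38 under the other limits. The compressed scale understates changes of dim members.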
